A study of Arabidopsis thaliana with 8 samples.

Results

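The comparison described here is the change, between 3 d and 6 d after pollination, in how embryos of 2 Arabidopsis thaliana crosses differed. It rests on all 8 of the 8 arrays of the study, 4 of 6 d and 4 of 3 d, and on 18257 genes that were measured well enough at both stages, of 22127 loci named in the value table. Every array set embryos with M0191 as mother and bdl as father (the bdl cross) against embryos with M0171 as mother and Col-0 as father (the Col-0 cross), each in a channel of its own, after total RNA of the isolated embryos had been amplified. Ecotype Col-0 is given for all of them, the design text calls the 4 arrays of a stage biological replicates, and the bdl cross carried Cy5 on replicates 1 and 2 and Cy3 on replicates 3 and 4 of each stage. The labels say nothing more of M0191 and M0171, and since mother and father both differ, no value can be assigned to 1 parent. Each array gave a log2 ratio, called the cross ratio below, with bdl-cross signal on top and Col-0-cross signal underneath. A gene is said to rise where its cross ratio was higher at 6 d than at 3 d and to fall where it was lower, at an adjusted p under 0.05 in limma's moderated test of the difference between stages (Benjamini-Hochberg over all 18257 genes). Such a difference can come from a change in either cross, since levels of 6 d were not analysed here, and in bulk RNA fewer cells of a type and less RNA per cell cannot be told apart.

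The bdl (bodenlos) mutant is known to carry a degradation-resistant version of the Aux/IAA repressor IAA12, also called BDL. Aux/IAA proteins bind auxin response factors and hold back their target genes until auxin has them degraded, and BDL is known as the partner of MONOPTEROS (MP), which is needed to set up the embryonic root, the vascular strands and the cotyledons. In the days after pollination the embryo passes from a small globe to a stage with cotyledons and begins to green and to store protein and oil, while the endosperm and the seed coat around it develop as well.

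The 6 d arrays correlated with each other at 0.693 to 0.80 over genes, the 3 d arrays at 0.314 to 0.54, and a 6 d with a 3 d array at 0.197 to 0.275. The direction of the 6 d ratios rests on the convention of the value table, whose 3 d columns matched the 3 d intensities in all 24661 rows that could be matched; it was not checked against 6 d intensities. The labels give replicates 1 and 2 one dye orientation and replicates 3 and 4 the other, but the blank spots of 3 d paired them otherwise, with a median log2 ratio of 1.28 on replicate 1 and 0.79 on replicate 4, against -1.18 on replicate 2 and -1.32 on replicate 3. With the dye term paired as the blank spots were, 4619 genes rose and 4025 fell, and 97.6% of the calls reported here remained. A probe counted as measured at 3 d where its channel exceeded the 95th percentile of the blank spots. The material was labelled as isolated embryo, and transcripts of other seed tissues were present in it at 3 d. Of 24 seed coat markers with a probe, 17 did so in both channels on all 4 arrays of 3 d, the tannin gene BAN and the ovule identity gene STK among them, while BEE1 did so on none. The same held for 12 of 20 endosperm markers, although IKU2 and FIS2 were near the blank spots, and for 11 of 18 heat shock and wounding markers. Among embryo genes it held for 13 of 17 maturation regulators, 19 of 27 shoot apex and cotyledon genes, 11 of 15 zygote and suspensor genes and 4 of 13 root pole genes. Summed over each list, 3 d levels in the bdl cross over those in the Col-0 cross lay at log2 0.55 to 0.65 for the seed coat, 0.55 to 0.72 for the endosperm and 0.29 to 0.43 for heat shock and wounding on the 4 arrays. They lay at 0.39 to 0.51 for the maturation regulators, 0.38 to 0.48 for zygote and suspensor, -0.81 to -0.49 for the shoot apex and -0.97 to -0.66 for the root pole.

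Between the stages 46.3% of the genes changed: 4526 rose (24.8%) and 3933 fell (21.5%). The median difference over all genes was 0.02 on the log2 scale, and the median standard error of a gene's difference was 0.175. A rise of at least 1 on the log2 scale was called for 2547 genes and a fall of that size for 1363. The values of the 4 arrays of 6 d lay wholly apart from the 4 of 3 d for 9150 genes (50.1%). Most of the change was a cross difference seen at 6 d without a call at 3 d. Of the genes that rose, 2568 were called higher in the bdl cross at 6 d and not called at 3 d, and 913 were higher at both stages. Another 587 turned sign, higher in the bdl cross at 6 d and lower in it at 3 d. In 286 the cross ratio was called below 0 at 3 d and was not called at 6 d, and 98 were lower in the bdl cross at both stages. Of the genes that fell, 2259 were called lower in the bdl cross at 6 d alone, 823 were lower at both stages, 404 turned from higher at 3 d to lower at 6 d, 269 were higher at 3 d with no call at 6 d, and 82 were higher at both. The remaining 74 that rose and 96 that fell were called at neither stage by itself. Taken alone, 6 d gave 11141 called genes (61.0%) and 3 d 5246 (28.7%).

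**Figure D1:**
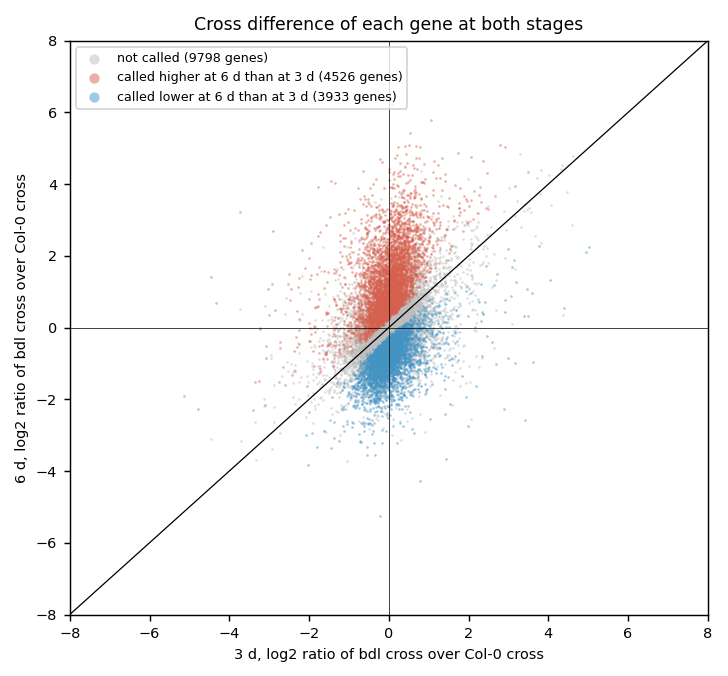
Each point is 1 of the 18257 tested genes, with its cross ratio (log2) at 6 d on the vertical axis and at 3 d on the horizontal axis; colours mark the 4526 genes that rose, the 3933 that fell and the rest, and the diagonal line marks equal ratios. The cloud is taller than it is wide, and most coloured points lie above or below a 3 d ratio near 0.

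The spread of the cross ratios over genes was wider at the later stage. Its SD was 1.15, 1.32, 1.26 and 1.20 on the 4 arrays of 6 d, against 0.877, 0.727, 0.779 and 0.741 on those of 3 d. The 2 stages did not overlap, and the means, 1.23 ± 0.071 at 6 d and 0.781 ± 0.068 at 3 d (SD, n = 4 each), stood in a ratio of 1.58. The exact two-sided permutation test over the 8 arrays gave p = 0.0286, the smallest that 4 against 4 arrays allow. With every array set to the same spread, 65.6% of the calls remained and 40 were called with the sign turned, so the text gives that value, as the equal-spread value, wherever it turns the sign of a list's median, ends the call of a named gene or moves a list's leading count by over 1.5 times. Counts of list members are treated likewise where 1 array left out has that effect. Each count is to be read against the 24.8% of all genes that rose and the 21.5% that fell.

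The change also followed the length of the gene, which no list was chosen on. Lengths were the genomic spans of RefSeq, known for 18155 genes (99.4%), and the pattern was looked for after the data had been seen. Genes were sorted by length into 10 groups of equal size. In the shortest group, with a median length of 813 bases, the median difference was 0.63, with 40.0% of genes rising and 5.29% falling. In the longest group, with a median of 5647 bases, it was -0.19, with 11.8% rising and 27.3% falling. The gradient lay in the 6 d ratios. Their median in the shortest group minus that in the longest was 0.74, 0.84, 0.74 and 0.72 on the 4 arrays of 6 d, against -0.02, -0.07, -0.02 and -0.03 on the 4 of 3 d. All 4 arrays of 6 d showed it, in either dye orientation, and none of 3 d did. Over genes, length and the difference had a Spearman rho of -0.28, and length and the mean 3 d signal one of 0.04. Short genes with strong transcripts, such as those of ribosomal proteins and histones, therefore sit in the part of the genome where rises were common, and the medians of lists are also given after each array was centred within each of the 10 length groups (the length-centred value) where the median turns or the leading count moves by over 1.5 times. What part length has in any gene's change was not tested. The change went with signal strength as well, with a narrower range of medians than by length but a wider range of the share rising. In the brightest of 10 groups at 3 d the median difference was 0.22, with 42.1% rising and 23.4% falling. In the dimmest it was -0.03, with 7.17% rising and 7.45% falling.

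**Figure D2:**
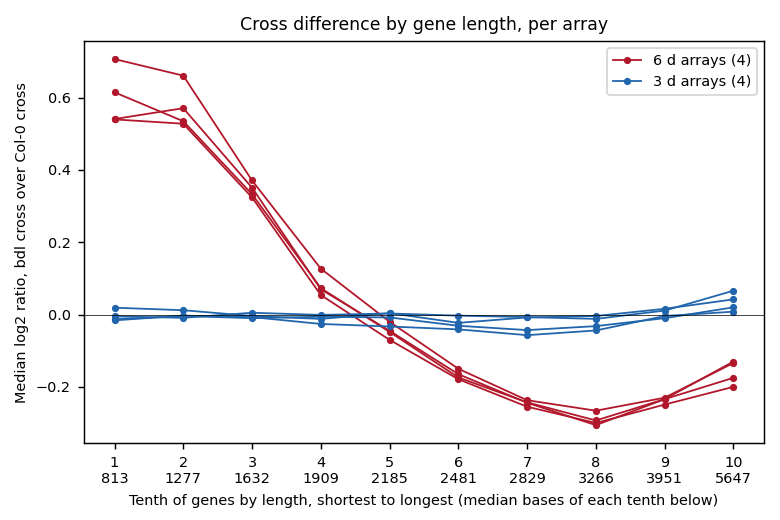
Genes were sorted into 10 groups by length, shortest on the left, with the median length in bases under each group; each line is 1 array and gives the median cross ratio (log2). The 4 lines of 6 d run from 0.54 to 0.71 in the shortest group down to -0.20 to -0.13 in the longest, while the 4 lines of 3 d stay between -0.06 and 0.07.

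IAA12 itself was among the genes whose cross ratio shifted most. Its ratios were 0.30, 0.39, 0.26 and 0.30 at 6 d, against 3.57, 3.39, 3.33 and 3.32 at 3 d. The stages lay far apart, and the change of -3.09 ± 0.077 (SE; adjusted p = 9.02e-06, limma) is a 8.51-fold lower ratio at 6 d, at which the bdl cross was still slightly higher. A pair of dimmer probes of the same locus gave -2.50 and -1.97, with mean 6 d ratios of 0.70 and -0.61. On the dimmest probe the bdl cross was thus lower at 6 d, not higher. MP, the response factor that BDL restrains, had ratios of -1.48, -0.97, -0.92 and -1.37 at 6 d, against -0.62, -0.98, -0.99 and -0.70 at 3 d. It was lower in the bdl cross at both stages with overlapping values, and its difference of -0.36 ± 0.18 did not pass the test (adjusted p = 0.146, limma).

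Among genes known to answer to MP and BDL more moved toward or past equal levels in the 2 crosses than away from them. Of 14 tested, 7 rose and 1 fell (2 without replicate 1 of 3 d), with a median difference of 0.97 (median ratio -0.70 at 6 d, against -2.10 at 3 d). DRNL and DRN, AP2-domain factors of cotyledon formation, turned from lower to higher in the bdl cross. DRNL had ratios of 2.59, 2.69, 2.65 and 2.80 at 6 d, against -2.94, -2.85, -2.82 and -2.98 at 3 d, a change of 5.58 ± 0.083 or 47.7-fold (adjusted p = 5.53e-06, limma), and DRN had 1.86, 2.88, 2.57 and 2.10 at 6 d, against -1.97, -2.07, -1.97 and -1.83 at 3 d, a change of 4.31 ± 0.24. In both genes every 6 d value was above 0 and every 3 d value below it. AHP6, an inhibitor of cytokinin signalling in vascular cells, had 0.59, 0.83, 0.78 and 0.52 at 6 d, against -4.74, -4.35, -4.42 and -3.81 at 3 d and rose by 5.01 ± 0.2. ENP, which acts in the outgrowth of cotyledons, had -0.33, -0.43, -0.48 and -0.33 at 6 d, against -4.44, -1.92, -2.11 and -2.46 at 3 d. It rose by 2.34 and stayed near 0 at 6 d, with its signal in the bdl cross above the blank spots on 3 of 4 arrays of 3 d. The member that fell was PLT1, a factor of the root stem cell niche, with -2.50, -2.59, -2.85 and -2.64 at 6 d, against -1.28, -1.43, -1.46 and -1.28 at 3 d. Its difference of -1.28 became 0.11 with no call in the equal-spread setting.

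**Figure D3:**
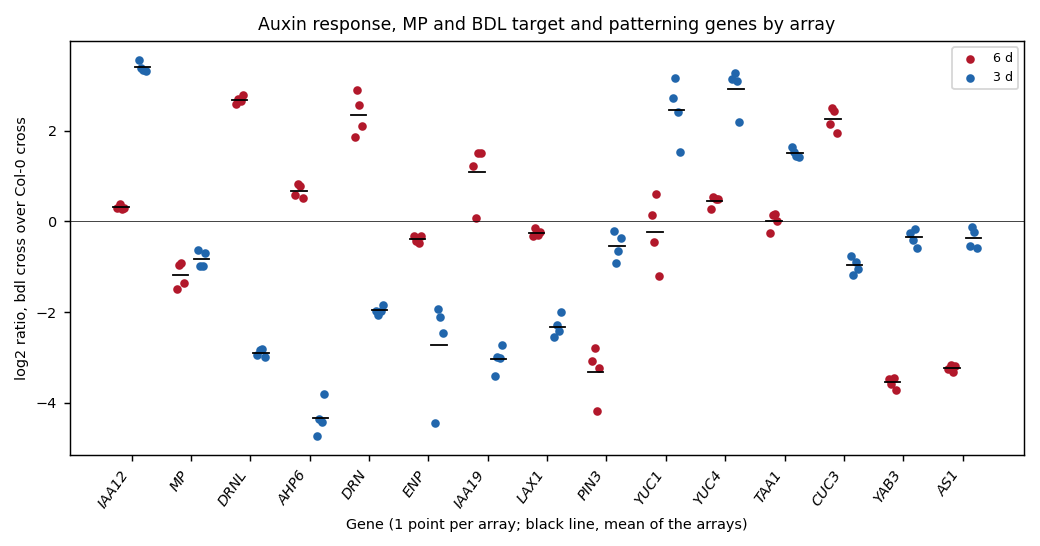
Cross ratios (log2) on each array, 6 d in red on the left and 3 d in blue on the right of each gene, with black lines at the means. IAA12 falls to near 0.31 at 6 d, against 3.40 at 3 d, while DRNL, DRN and AHP6 lie above 0 on every array of 6 d and below it on every array of 3 d.

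Among the Aux/IAA repressors 5 of 20 rose and 4 fell, near the 24.8% and 21.5% of all genes; 2 fell without replicate 1 of 3 d, and 4 rose and 6 fell when the probes of a locus were averaged. IAA19, itself an early auxin-induced gene, changed most among those that rose, with 1.22, 0.08, 1.51 and 1.51 at 6 d, against -3.41, -2.99, -3.01 and -2.73 at 3 d, a difference of 4.11 ± 0.28. Replicate 2 of 6 d stood lower than its 3 fellows and still above all 3 d values. IAA20 (1.44) and IAA16 (1.47) rose as well. Of the auxin response factors, which act on the promoters, 3 of 17 rose and 6 fell. ETT, which acts in organ polarity, rose by 0.92, while ARF6 fell by 0.80 and ARF9 by 0.84. ARF13 fell further, with -2.33, -1.55 and -1.24 on the 3 arrays of 6 d that measured it, against 1.32, 0.95, 0.75 and 0.75 at 3 d.

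Of the 10 auxin synthesis genes tested 1 rose and 5 fell, with a median difference of -1.44 (median ratio -0.78 at 6 d, against 0.59 at 3 d). YUC1 and YUC4, flavin monooxygenases of the last step, and TAA1, the aminotransferase before them, all fell. YUC1 had 0.13, -0.45, 0.60 and -1.20 at 6 d, against 2.73, 3.16, 2.42 and 1.54 at 3 d, YUC4 had 0.27, 0.53, 0.49 and 0.49 at 6 d, against 3.15, 3.27, 3.09 and 2.19 at 3 d (a dimmer probe changed by -1.62), and TAA1 had -0.25, 0.15, 0.16 and 0.02 at 6 d, against 1.65, 1.53, 1.44 and 1.42 at 3 d. In all 3 genes the bdl cross was clearly higher at 3 d and the ratios of 6 d were lower. At 6 d TAA1 lay around 0, YUC4 was still above 0 on every array, and YUC1 spread from -1.20 to 0.60. The riser, YUC10, differed by 1.37, which became -0.33 with no call in the equal-spread setting. Among GH3 enzymes, which conjugate auxin, and auxin receptors, 0 of 14 rose and 7 fell, with a median of -0.95. The count that fell was 3 or 4 without replicate 1, 2 or 3 of 6 d, 3 when length-centred, 4 with dyes paired by the blank spots and 1 with equal spread, where the median was -0.30. The receptor AFB3 fell by 1.07 and the GH3 enzyme WES1 by 1.92, the second with no call in the equal-spread setting.

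Of 17 genes of auxin transport 5 rose and 5 fell, in either direction a share not far above that of all genes. The influx carrier LAX1 had -0.33, -0.14, -0.30 and -0.23 at 6 d, against -2.56, -2.29, -2.42 and -2.01 at 3 d, and its relative AUX1 rose by 1.51. On this probe LAX1 stayed lower in the bdl cross at both stages, by less at 6 d. A dimmer probe of LAX1 rose by 0.64, with a mean ratio of 0.115 at 6 d, against -0.53 at 3 d. PIN3, an efflux carrier that redirects auxin flow, had -3.07, -2.79, -4.18 and -3.24 at 6 d, against -0.21, -0.92, -0.66 and -0.37 at 3 d and fell by 2.78. PID, the kinase that sets the side of the cell on which PIN proteins lie, fell by 1.02. Of the SAUR genes, small auxin-induced genes, 11 of 38 rose and 1, SAUR68, fell (3 without replicate 2 and 2 without replicate 3 of 6 d). Their median of 0.36 turned to -0.22 when length-centred. AT2G35290, known as SAUR79, rose by 2.02. The call of SAUR68, with a difference of -1.31, was lost when no dye term was fitted.

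Of 26 genes of the shoot apex and the cotyledons 11 rose and 6 fell. CUC3, which marks the boundary between cotyledons, had 2.15, 2.51, 2.43 and 1.94 at 6 d, against -0.75, -1.17, -0.89 and -1.05 at 3 d, a change of 3.22 ± 0.16. It was lower in the bdl cross on every array of 3 d and higher on every array of 6 d. YAB5, a YABBY factor of organ polarity, rose by 5.85 from values on 3 arrays of each stage. GRF5, a growth-regulating factor, rose by 3.24, with its signal in the bdl cross above the blank spots on 2 of 4 arrays of 3 d. Other polarity and organ genes fell. YAB3 had -3.47, -3.58, -3.44 and -3.71 at 6 d, against -0.25, -0.40, -0.17 and -0.58 at 3 d. AS1, a MYB factor of leaf formation, had -3.25, -3.17, -3.31 and -3.19 at 6 d, against -0.53, -0.13, -0.24 and -0.58 at 3 d. In both the crosses were close to each other at 3 d, and the bdl cross was far lower at 6 d on every array. KNAT1, a KNOX homeobox gene, fell by 1.67, with 3 values at 3 d and signal above the blank spots on 2 arrays in the bdl cross and 1 in the Col-0 cross.

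Many root and vascular genes were lower in the bdl cross at both stages. The median ratio of 10 root pole and ground tissue genes was -1.80 at 6 d, against -1.52 at 3 d, with 7 called lower at each stage, and the median difference of -0.01 became 0.72 with equal spread (4 rising, 1 falling) and 0.03 when length-centred. It lay above 0 also without replicate 3 of 3 d or replicate 1 or 3 of 6 d. WOX5, the homeobox gene of the quiescent centre, rose, and HSFB4, PLT1 and SCR fell. HSFB4, known as SCHIZORIZA in the root ground tissue, had -2.29, -2.08, -2.40 and -2.26 at 6 d, against -0.61, -0.58, -0.76 and -0.44 at 3 d. For SCR, a GRAS factor of the endodermis, the difference of -0.51 became 0.03 with no call in the equal-spread setting. WOX5 was above the blank spots in the bdl cross on 1 array of 3 d, and its call was lost when replicate 2 of 3 d or replicate 2 or 4 of 6 d was left out. Of 12 vascular genes 4 rose and 2 fell (median ratio -0.86 at 6 d, against -1.28 at 3 d). Beside AHP6 the risers were the Dof factor DOF2.4 (3.08), the cytokinin-activating LOG4 (1.14) and ACL5 (0.98), a thermospermine synthase. LHW, a bHLH partner of vascular divisions, fell by 1.73 and ATHB-15, an HD-ZIP III factor, by 1.04, both with no call in the equal-spread setting. A pair of dimmer ATHB-15 probes gave -0.89 and -0.50.

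In the epidermis list 2 of 14 rose and 6 fell (3 when length-centred). ATML1, the homeobox factor of epidermal identity, had -1.42, -1.18, -1.24 and -1.35 at 6 d, against 0.18, 0.13, 0.27 and 0.15 at 3 d, a change of -1.48 ± 0.087, and its relative HDG2 fell by 0.80. ALE1, a subtilase needed for the surface of the embryo, rose by 1.11 with no call in the equal-spread setting. ALE1 is also counted among the endosperm markers below. The zygote and suspensor list held 1 riser, SSP (0.59), a kinase of the zygote, and 3 genes that fell, ARF13, PIN7 and ARF9, of 12, with a median difference of -0.12 that turned to 0.08 when length-centred. Without replicate 4 of 6 d 2 rose. The call of SSP was lost in the equal-spread setting. So was that of PIN7, which was lost also when the probes of the locus were averaged, the dimmer ones giving 0.13 and -0.13.

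Genes of cytosolic ribosomes held the largest number of risers among the lists. Of 238 tested, 130 rose and 21 fell, against 24.8% and 21.5% of all genes. The median ratio was 0.33 at 6 d, against -0.36 at 3 d, a median difference of 0.70. At 3 d 111 members were called lower in the bdl cross and 1 higher, and at 6 d 47 were lower and 114 higher. Many of these genes are bright, and in the brightest of 10 signal groups 42.1% of all genes rose and 23.4% fell. The 149 members in that group had a median difference of 0.72, against 0.18 for the other 1677 genes there. The shorter members moved more: among the 119 shortest, 82 rose and 6 fell (median 1.19), and among the 119 longest, 48 rose and 15 fell (median 0.35). When length-centred, 102 rose and 35 fell, with a median of 0.31, and with equal spread the median was 0.82. AT4G33865, which encodes protein S29 of the small subunit, had 2.83, 2.58, 2.58 and 3.47 at 6 d, against -0.40, -0.64, -0.59 and -0.39 at 3 d. AT5G39800 rose by 3.51 and AT3G56020, of the tiny protein L41, by 2.98. RPS6, a small-subunit protein phosphorylated by a growth-controlled kinase, went against the list with -1.92, -2.56, -2.51 and -2.02 at 6 d, against -0.11, 0.14, -0.03 and -0.37 at 3 d, and RPL3B fell by 1.18. Ribosomal proteins are encoded by near-identical gene copies, and the probes may not tell these apart.

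Of 49 aminoacyl-tRNA synthetases, which load amino acids onto tRNAs, 3 rose and 25 fell (13 with equal spread), with a median of -0.49. OVA6, the organellar prolyl enzyme, had -1.12, -1.27, -1.02 and -0.64 at 6 d, against 0.09, 1.10, 0.56 and 1.08 at 3 d. The 3 that rose were AT1G17960 (2.83), annotated as a threonyl enzyme, AT5G38830 (0.88), annotated as a cysteinyl one, and emb1027 (0.59), the arginyl enzyme. Of 321 pentatricopeptide repeat proteins, which process organelle transcripts, 12 rose and 102 fell (22 and 43 with equal spread; median ratio -0.66 at 6 d, against -0.27 at 3 d). These genes are dim: the 248 in the dimmer 5 of 10 signal groups had a median difference of -0.44, against -0.03 for the other genes there, and the 73 in the brighter 5 one of -0.41. AT1G07590 was an exception with 3.83, 4.14, 3.67 and 4.04 at 6 d, against 0.02, 0.18, 0.06 and 0.07 at 3 d, and AT2G37310 fell by 2.12. Translation initiation and elongation factors included 21 that rose and 38 that fell of 100, with a median of -0.18 that turned to 0.05 with equal spread, where 20 rose and 16 fell. ELF5A-1, the hypusinated factor eIF5A, had 3.22, 3.60, 2.73 and 2.85 at 6 d, against 0.30, 0.25, 0.41 and 0.28 at 3 d, while TIF3H1, a subunit of eIF3, fell by 1.85 and by 0.70 and 0.59 on dimmer probes. Organelle ribosomal proteins had 14 risers and 5 that fell of 34, and their median of 0.14 turned to -0.08 when length-centred, with 8 rising and 12 falling. The plastid-specific protein PSRP6 rose by 1.75.

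Of 62 subunits of mitochondrial respiration, 34 rose and 9 fell, with a median ratio of 0.57 at 6 d, against -0.01 at 3 d. The difference followed length here too, with a median of 1.15 in the 31 shorter members and 0.10 in the 31 longer, and 0.44 over the list when length-centred. AT3G03070, a small subunit of complex I, had 2.51, 2.56, 2.87 and 2.99 at 6 d, against 0.22, 0.12, 0.17 and 0.27 at 3 d, and AT5G05370, a subunit of complex III, rose by 2.46. SDH1-1, the large flavoprotein of succinate dehydrogenase, fell by 1.17.

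Among plastid genes short photosystem genes rose and most genes of chlorophyll synthesis fell. Of 35 photosystem subunits 14 rose and 7 fell. Their median of 0.12 turned to -0.31 with equal spread (7 rising, 12 falling) and to -0.04 when length-centred (10 and 12). Among the 19 shorter members 13 rose and 1 fell, and among the 16 longer 1 rose and 6 fell. PSBTN, a small protein of photosystem II, had 3.15, 3.22, 3.06 and 3.17 at 6 d, against 0.72, 0.63, 0.61 and 0.73 at 3 d. PSAK of photosystem I rose by 2.16, while PSB29, needed for building photosystem II, fell by 1.67. The light harvesting proteins fell in 9 of 20 cases (14 with equal spread and also when length-centred) and rose in 2, with a median ratio of 0.05 at 6 d, against 0.79 at 3 d. LHCB5 had -0.40, -0.80, -0.88 and -0.66 at 6 d, against 0.20, 0.46, 0.50 and 0.35 at 3 d, and LHCB4.2 fell by 0.85, and by 0.67 and 1.77 on dimmer probes. In chlorophyll synthesis 15 of 19 genes fell and 2 rose (median -0.63); with 1 array left out 10 to 13 fell and up to 2 rose. PORB, the light-dependent protochlorophyllide reductase, had -1.30, -1.40, -1.35 and -1.32 at 6 d, against 0.53, 0.48, 0.48 and 0.68 at 3 d. The crosses differed in opposite directions at the stages, as they did for HEME2, a decarboxylase of the pathway, which fell by 1.14. In carbon fixation 9 of 19 fell and 2 rose. RCA, which activates Rubisco, had -1.51, -1.72, -1.56 and -1.95 at 6 d, against 0.32, 0.51, 0.50 and 0.28 at 3 d, and 3 other probes of its locus gave -1.15, -1.93 and -2.42. RBCS2B, a small subunit of Rubisco from a family of near-identical genes, had 2.60, 2.28, 3.13 and 2.19 at 6 d, against -0.65, -0.43, -0.54 and -0.55 at 3 d and rose by 3.09.

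Genes of oil storage fell more often than they rose, and 5 of 7 storage proteins did not pass the test. The 5 oil body proteins had a median ratio of 0.70 at 6 d, against 2.37 at 3 d, and 3 of them fell. The oleosins OLEO4, OLEO3 and OLEO2, which coat oil bodies, were those that fell. OLEO4 had 0.43, 0.58, 0.62 and 0.59 at 6 d, against 4.33, 4.93, 4.67 and 3.65 at 3 d, OLEO3 had -0.15, 0.92, 0.25 and 0.45 at 6 d, against 2.53, 2.73, 2.74 and 1.51 at 3 d and OLEO2 had 0.89, 0.61, 0.46 and 0.84 at 6 d, against 2.63, 2.77, 2.84 and 1.40 at 3 d. At 3 d each stood clearly higher in the bdl cross, and at 6 d the crosses differed less. OLEO4 and OLEO2 were still higher in the bdl cross on every array of 6 d, and OLEO3 on all but replicate 1. OLEO4 was above the blank spots in the Col-0 cross on 2 of 4 arrays of 3 d. Enzymes of fatty acid and oil synthesis fell in 14 of 28 cases and rose in 3 (median -0.58); without replicate 3 of 3 d or replicate 1 of 6 d 1 rose. KASI, the condensing enzyme of chain extension, had -1.14, -0.81, -1.08 and -1.30 at 6 d, against 0.35, 0.39, 0.29 and 0.45 at 3 d. CAC2 and BCCP2, subunits of the plastid acetyl-CoA carboxylase, fell by 1.28 and 1.25. All 3 were higher in the bdl cross on every array of 3 d and lower on every array of 6 d. LPAT2, an acyltransferase of the endoplasmic reticulum, rose by 1.14.

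The 7 seed storage proteins were strongly higher in the bdl cross at both stages, with a median ratio of 4.33 at 6 d and 4.36 at 3 d. CRA1, a 12S cruciferin, fell by 2.85 and by 0.55 on a dimmer probe, with its signal in the Col-0 cross above the blank spots on 1 array of 3 d. SESA4, a 2S albumin, rose by 0.83. Its call was lost without replicate 2, 3 or 4 of 3 d or replicate 1 of 6 d and when length-centred, and the difference turned to -2.09 with equal spread. The list's median of 0.19 turned to -3.26 in that setting, with 6 falling, and to -0.41 when length-centred. It turned also without replicate 4 of 3 d (-0.38) or replicate 3 or 4 of 6 d (-0.05 and -0.01), and 2 fell without replicate 4 of 6 d. Late embryogenesis abundant proteins, which protect drying seeds, had 2 risers and 3 that fell of 16, but 6 fell with equal spread and 1 without replicate 4 of 3 d. SAG21 (1.86) and AT2G46140 (1.59) rose, and AT3G50790 fell by 1.28. Regulators of embryo maturation had 4 risers and 5 that fell of 16, and their median of 0.03 turned to -0.53 with equal spread and below 0 without replicate 2 of 3 d (-0.07) or replicate 1 of 6 d (-0.02); when length-centred 6 rose and 5 fell. MYB118, known from the endosperm, had 2.03, 2.14, 1.96 and 2.21 at 6 d, against 0.20, 0.24, 0.14 and 0.06 at 3 d, and LEC2, a B3 factor of maturation, 0.92, 0.81, 0.81 and 0.75 at 6 d, against -0.24, -0.29, -0.23 and -0.36 at 3 d. LEC2 passed from slightly lower to higher in the bdl cross. PKL, a chromatin remodeller that represses embryonic genes after germination, had -1.29, -2.15, -2.10 and -1.05 at 6 d, against 0.35, 0.32, 0.43 and 0.63 at 3 d and fell by 2.08.

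Of 51 histones 24 rose and 6 fell, with a median ratio of 0.20 at 6 d, against -0.24 at 3 d. Their median difference of 0.49 was 0.06 when length-centred, with 14 rising and 10 falling. HTB2, a histone H2B, had 2.22, 1.97, 2.64 and 3.10 at 6 d, against -0.11, -0.33, -0.49 and 0.17 at 3 d, and HTA8, an H2A variant, rose by 1.78 and on dimmer probes by 0.74, 0.80 and 0.23. HON5, of the H1 type, fell by 1.58. Histone genes, like tubulin genes, have close copies that probes may not tell apart. Of 25 DNA replication genes 1 rose and 9 fell (median -0.32), and with equal spread 2 rose and 4 fell (median -0.02). MCM4, of the replicative helicase, had -1.18, -1.43, -1.45 and -1.37 at 6 d, against -0.27, -0.17, -0.28 and -0.41 at 3 d, and ORC4, of the origin recognition complex, fell by 1.07. The riser was TSO2, a subunit of ribonucleotide reductase, with 1.22. Cyclins and cell cycle kinases gave 8 risers and 6 that fell of 31, shares near those of all genes. Without replicate 2 of 3 d or replicate 2 or 3 of 6 d 5 rose and 6 fell, and with equal spread 14 rose and 2 fell. The G1 cyclin CYCD4;1 rose by 0.86 and the A-type cyclin CYCA3;4 fell by 1.10 and by 0.46 and 0.43 on dimmer probes. Kinesins, motors of the microtubules and among the longest genes, gave 13 risers and 7 that fell of 50. The count that fell was 3 or 4 without replicate 2 or 3 of 3 d or replicate 1 or 2 of 6 d. The share of kinesins that rose was near the 24.8% of all genes, and the share that fell was below their 21.5%. ATK4 rose by 1.42 and KAC2, a kinesin-like protein of chloroplast movement, by 1.20. Of 27 tubulin genes 1, TUB4, rose by 0.38, a call lost with equal spread, and 10 fell (4 with equal spread, 6 when length-centred). TUB5 had -0.59, -0.45, -0.45 and -0.59 at 6 d, against 0.78, 0.87, 0.76 and 0.74 at 3 d.

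Protein turnover showed no common direction. Proteasome subunits gave 21 risers and 13 that fell of 57, with 17 and 4 among the 29 shorter members and 4 and 9 among the 28 longer. With equal spread 13 rose and 3 fell, and the median of 0.02 was -0.01 without replicate 3 of 3 d or replicate 2 of 6 d. AT1G67250, an assembly factor of the UMP1 family, had 1.44, 1.70, 1.73 and 1.57 at 6 d, against -0.21, -0.19, -0.25 and 0.09 at 3 d, and AT5G23540, annotated as a regulatory subunit, fell by 1.24. F-box proteins, which pick targets for degradation, gave 62 risers and 80 that fell of 377, and RING and U-box ligases 59 and 48 of 281. With equal spread the counts were 42 and 44 for the F-box genes and 38 and 34 for the ligases. The ligases' median of 0.03 turned to -0.04 when length-centred and to -0.02 or -0.03 without replicate 1 of 3 d or replicate 2 or 3 of 6 d. The shares called in both lists, 37.7% and 38.1%, were below the 46.3% of all genes, but dim genes were called less often. With both channels above the blank spots on all arrays of 3 d, 49 of 210 F-box genes rose and 72 fell. Of 187 ligases 54 rose and 47 fell, and of all 13096 genes in that setting 4171 rose and 3658 fell. The gap to all genes was smaller there. The kelch F-box gene AT1G80440 rose by 2.53, and the RING gene BRH1, responsive to brassinosteroid, by 2.88. AT5G01720, of the FBL group, fell by 2.25 and the RING gene AT1G73760 by 2.00. Serine carboxypeptidases gave 13 risers and 6 that fell of 37. The gene scpl48 had 2.70, 2.50, 2.56 and 2.52 at 6 d, against 0.67, 0.62, 0.55 and 0.61 at 3 d, and scpl44, at 1.87, 1.88, 1.96 and 1.87 at 6 d, against 3.09, 3.12, 3.28 and 3.07 at 3 d, stayed higher in the bdl cross at both stages while it fell. Heat shock proteins and factors gave 13 and 10 of 57, and with both channels above the blank spots on all arrays of 3 d 11 and 13. The factor HSFA2 rose by 1.42 and the HSP90 gene HSP81-3 fell by 0.94.

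At the cell surface, lipid transfer proteins stood out by count. Of 69 tested 37 rose and 4 fell, with a median of 0.69 that was 0.13 when length-centred. These proteins carry lipids in the wall and the cuticle, and their genes are short (median length 863 bases). AT5G38195 had 4.80, 4.94, 4.73 and 4.50 at 6 d, against 0.09, 0.22, 0.16 and 0.16 at 3 d, and LTP4 had 4.04, 3.74, 3.89 and 4.35 at 6 d, against -0.16, -0.03, -0.04 and -1.31 at 3 d. Both were near or below equal in the bdl cross at 3 d and far higher in it at 6 d. CWLP, a cell wall protein with a plasma membrane anchor, fell by 2.24. Enzymes that modify xyloglucan gave 8 risers and 2 that fell of 20. XTH24 had 3.05, 3.22, 3.12 and 3.15 at 6 d, against 0.78, 0.67, 0.80 and 0.84 at 3 d, the touch-induced TCH4 rose by 1.79, and XTH16 fell by 0.40. Expansins, which loosen walls, gave 6 and 4 of 24, shares near those of all genes, and EXLA1 rose by 2.46. Without replicate 1, 2 or 3 of 6 d 2 expansins fell, and their median of 0.13 turned to -0.25 without replicate 4. Pectin-modifying enzymes gave 38 and 16 of 127, and their median of 0.14 turned to -0.14 with equal spread, where 24 rose and 21 fell. AT5G50050, annotated as a pectin methylesterase inhibitor, had 4.25, 5.45, 3.22 and 4.54 at 6 d, against -0.67, -0.63, -0.46 and -0.85 at 3 d, and AT5G62350, of the same annotation, fell by 1.79.

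Of 14 cellulose synthase genes 4 fell, CESA2 by 0.67, and 0 rose, although the median difference was 0.09. The counts and the sign of that median depended on single arrays: with 1 array left out 2 to 4 fell and up to 1 rose, 2 falling in every case but without replicate 4 of 3 d or replicate 2 of 6 d, and the median was -0.18 to -0.02 without replicate 1, 3 or 4 of 3 d or replicate 3 of 6 d. When length-centred 1 fell. Arabinogalactan proteins gave 13 risers and 5 that fell of 33, with a median of 0.29 that turned to -0.23 when length-centred, with 9 rising and 10 falling. AGP21, a short peptide, rose by 2.61, and the larger fasciclin-like FLA1 fell by 1.32. GDSL lipases gave 16 and 7 of 47 (median 0.08, -0.01 with equal spread and -0.05 to -0.02 without replicate 1 of 3 d or replicate 2 or 3 of 6 d), with AT1G71250 rising by 2.56 and FXG1, an alpha-fucosidase, falling by 2.33. Peroxidases gave 14 and 7 of 40, and their median of 0.26 turned to -0.02 with equal spread, where 8 rose and 8 fell. Without replicate 2 of 3 d or replicate 1, 2 or 3 of 6 d 4 fell. AT2G37130 had 2.74, 1.25, 3.39 and 2.33 at 6 d, against -1.04, -0.90, -0.83 and -0.98 at 3 d, and AT5G40150 fell by 1.25.

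Jasmonate repressors and enzymes gave 6 risers and 3 that fell of 23, with a median of 0.18 that turned to -0.23 with equal spread. It turned also to -0.11 without replicate 1 of 3 d, -0.19 without replicate 2 of 3 d and -0.41 without replicate 2 of 6 d, and 1 fell without replicate 4 of 3 d and 5 without replicate 3 of 6 d. JAZ1, a jasmonate-induced repressor, had 1.84, 2.15, 2.21 and 2.09 at 6 d, against 0.55, 0.52, 0.59 and 0.42 at 3 d, a rise of 1.55 against 0.29 on a dimmer probe, and JAZ11 fell by 0.85. Ethylene response factors and AP2 domain genes gave 15 and 11 of 80, and their median of 0.13 turned to -0.11 when length-centred, with 9 rising and 19 falling. Beside DRNL and DRN, Rap2.6L, a factor induced by wounding, had 4.82, 6.13, 4.28 and 7.96 at 6 d, against -0.82, 1.11, 2.64 and 1.33 at 3 d. Its cross ratio was higher in the bdl cross on every array of 6 d with a wide spread, and its call was lost with equal spread. DREB1A, a cold response factor, had -1.14, -1.16, -1.28 and -1.09 at 6 d, against 0.97, 0.74, 0.78 and 1.00 at 3 d. Abscisic acid response genes gave 7 and 6 of 27, with a median of 0.10 that turned to -0.03 without replicate 3 of 3 d. NCED6, a dioxygenase of abscisic acid synthesis known from the endosperm, rose by 2.52, and RD26, a drought-induced NAC factor, by 2.01 (1.17 on a dimmer probe), while ABF4, a bZIP factor of the abscisic acid response, fell by 1.83.

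Of 8 type-A cytokinin response regulators 2 rose, RR16 (3.29) among them, and 1, ARR4, fell by 0.77, while 1 rose with equal spread and 2 fell without replicate 4 of 3 d. RR16 was above the blank spots on 1 array of 3 d in the bdl cross and on 2 in the Col-0 cross. Of 12 gibberellin oxidases 3 rose and 0 fell. GA20OX4 rose by 1.38, a call lost with equal spread, as were those of the other 2, while the list's median of -0.01 turned to 0.20. It lay above 0 also without replicate 2 or 3 of 3 d or replicate 3 of 6 d, and 2 fell without replicate 1 of 3 d. WRKY factors, known from defence, gave 6 risers and 1 that fell of 38, 18.4% called against 46.3% of all genes. Signal strength was not matched in that comparison. The count that fell was 0 without replicate 2 or 3 of 3 d or replicate 1 or 3 of 6 d, and 3 without replicate 2 of 6 d. WRKY23, an auxin-responsive member, rose by 1.92 and WRKY22 by 0.83. NAC factors gave 17 and 5 of 51 and MYB factors 38 and 22 of 134. Without replicate 4 of 3 d or replicate 2 or 3 of 6 d, and with both channels above the blank spots on all arrays of 3 d, 11 NAC factors rose. NAC027 had 2.45, 2.41, 2.47 and 2.71 at 6 d, against 0.37, 0.22, 0.20 and 0.33 at 3 d, and SOG1, the regulator of the DNA damage response, fell by 2.07. RAX2, a MYB factor of axillary meristems, had 3.26, 3.15, 3.29 and 3.25 at 6 d, against 0.62, 0.73, 0.55 and 0.83 at 3 d, and MYB90, which switches on anthocyanin genes, rose by 2.63.

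Defence peptides and PR proteins gave 8 risers and 4 that fell of 26, and their median of 0.14 turned to -0.15 when length-centred and to -0.03 or -0.02 without replicate 2 or 4 of 6 d. The thionin THI2.2 rose by 5.69, with values on 3 arrays of 3 d. The defensin PDF2.1 had 4.60, 3.83, 4.19 and 4.50 at 6 d, against 1.46, 1.32, 1.28 and 1.60 at 3 d, while the defensin LCR67 fell by 2.39. TIR-NBS-LRR resistance proteins gave 14 and 8 of 93, 23.7% called, and 7 and 8 with both channels above the blank spots on all arrays of 3 d. AT1G63750 rose by 3.19 and ZAR1 fell by 1.25. Whether each member of the list, ZAR1 included, carries a TIR domain was not checked. Receptor-like kinases gave 26 and 34 of 149, and their median of -0.19 was 0.00 when length-centred (30 and 27), while 25 and 20 were called with equal spread.

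Enzymes of secondary metabolism and transporters held several of the larger single changes. Cytochrome P450s gave 32 risers and 15 that fell of 120 (20 and 15 with equal spread). CYP89A9, which acts in chlorophyll breakdown, had 2.63, 2.68, 3.14 and 2.85 at 6 d, against 0.54, 0.45, 0.46 and 0.69 at 3 d, and AT4G36220, the ferulate 5-hydroxylase of lignin synthesis, had -1.30, -1.56, -1.52 and -1.55 at 6 d, against 0.80, 0.20, 0.80 and 0.48 at 3 d. UDP-glycosyltransferases gave 5 and 10 of 44, with UGT85A2 rising by 1.67 and UGT74F1, which glycosylates salicylic acid, falling by 2.73. Their median of 0.07 turned to -0.10 when length-centred and to -0.001 without replicate 2 of 3 d. Glutathione transferases gave 10 and 6 of 31, and their median of 0.17 turned to -0.16 when length-centred. GSTF12, the TT19 protein that helps flavonoids reach the vacuole, had 3.63, 2.74, 3.68 and 4.54 at 6 d, against 0.68, 0.67, 0.60 and 0.60 at 3 d, and GSTU19 fell by 1.40.

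MATE and ABC transporters gave 23 and 27 of 111, with a median of -0.12 that turned to 0.04 when length-centred (27 and 21). ABCG1, a transporter of surface polymers, had 3.09, 2.82, 3.14 and 3.21 at 6 d, against -0.38, -0.47, -0.49 and -0.48 at 3 d, and ABCG5, linked to the cuticle, fell by 1.84. Among 54 sugar transporters 15 rose and 13 fell. SWEET11, a sucrose exporter that feeds the embryo from the seed coat and endosperm, had 3.27, 3.27, 3.27 and 3.28 at 6 d, against -1.20, -0.69, -1.10 and -0.53 at 3 d. SWEET9, known from nectaries, rose by 3.41. The sucrose importer SUC1 went the other way with -2.82, -2.90, -2.57 and -2.63 at 6 d, against 0.27, 0.37, 0.34 and 0.41 at 3 d, and the vacuolar SUT4 fell by 1.55. Aquaporins gave 4 and 4 of 26, but 1 fell without replicate 1 or 3 of 3 d and 2 without replicate 3 of 6 d. Their median of -0.06 lay above 0 without replicate 3 of 3 d or replicate 2, 3 or 4 of 6 d, and with equal spread 7 rose. TIP2;2 rose by 2.83, and TIP3;1, the seed-specific vacuolar aquaporin, fell by 1.83.

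More markers of the endosperm and the seed coat rose than fell. Of 17 endosperm markers 8 rose and 4 fell, with a median ratio of 1.26 at 6 d, against 0.19 at 3 d. Of 21 seed coat markers 11 rose and 1 fell, with 0.89 at 6 d, against 0.38 at 3 d. The median differences, 0.83 and 0.62, were 0.23 and 0.62 when length-centred and 0.24 and 0.20 with equal spread, where 5 seed coat markers rose and 3 fell. Without replicate 1 of 3 d 2 seed coat markers fell, and with both channels above the blank spots on all arrays of 3 d 5 endosperm markers rose. MADS-box factors, many of them known from the endosperm and ovule, gave 22 risers and 3 that fell of 57. PHE1, a type I MADS gene of the endosperm, had 2.13, 2.13, 2.43 and 1.68 at 6 d, against 0.61, 0.31, 0.37 and 0.49 at 3 d. AGL62, which delays endosperm cellularisation, had 1.51, 1.02, 1.59 and 2.27 at 6 d, against -0.16, 0.11, -0.16 and 0.61 at 3 d, and FWA, an imprinted homeobox gene, had 1.85, 2.54, 1.38 and 1.81 at 6 d, against 0.38, 0.26, 0.15 and -0.03 at 3 d. All 3 were close to equal or modestly higher in the bdl cross at 3 d, and every 6 d value exceeded every 3 d value. AGL91 rose by 3.33 and SEP3, a floral organ factor, by 2.10, while FIE, a Polycomb protein that restrains the endosperm, fell by 1.24.

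In the seed coat, STK, the ovule identity factor, had 2.10, 2.07, 1.99 and 1.91 at 6 d, against 0.21, 0.46, 0.33 and 0.51 at 3 d, and its dimmer probes rose by 1.19 and 0.89. DFR and TT7, enzymes of flavonoid synthesis, had 2.29, 2.18, 2.27 and 2.37 at 6 d, against 0.67, 0.64, 0.62 and 0.65 at 3 d for DFR and 1.55, 1.67, 1.48 and 1.97 at 6 d, against 0.35, 0.35, 0.49 and 0.34 at 3 d for TT7. TT10, a laccase that browns tannins, rose by 1.84, a call lost with equal spread. F3H, an earlier enzyme of the same pathway, was the marker that fell, with -0.20, 0.01, -0.43 and -0.15 at 6 d, against 0.65, 0.70, 0.72 and 0.69 at 3 d. Among markers of heat shock and wounding 6 of 15 rose and 0 fell (median ratio 0.69 at 6 d, against 0.27 at 3 d). MBF1C, a heat-induced coactivator, had 3.08, 2.87, 3.07 and 3.14 at 6 d, against -0.71, -0.59, -0.76 and -0.67 at 3 d. STZ, a stress-induced zinc finger factor, had 3.14, 7.59, 3.88 and 3.77 at 6 d, against 0.26, 0.17, 0.32 and 0.36 at 3 d, with replicate 2 of 6 d far above the others. The part of these tissues and of handling in the changes of the embryo genes, ALE1, NCED6, MYB118 and SWEET11 among them, was not tested.

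**Figure D4:**
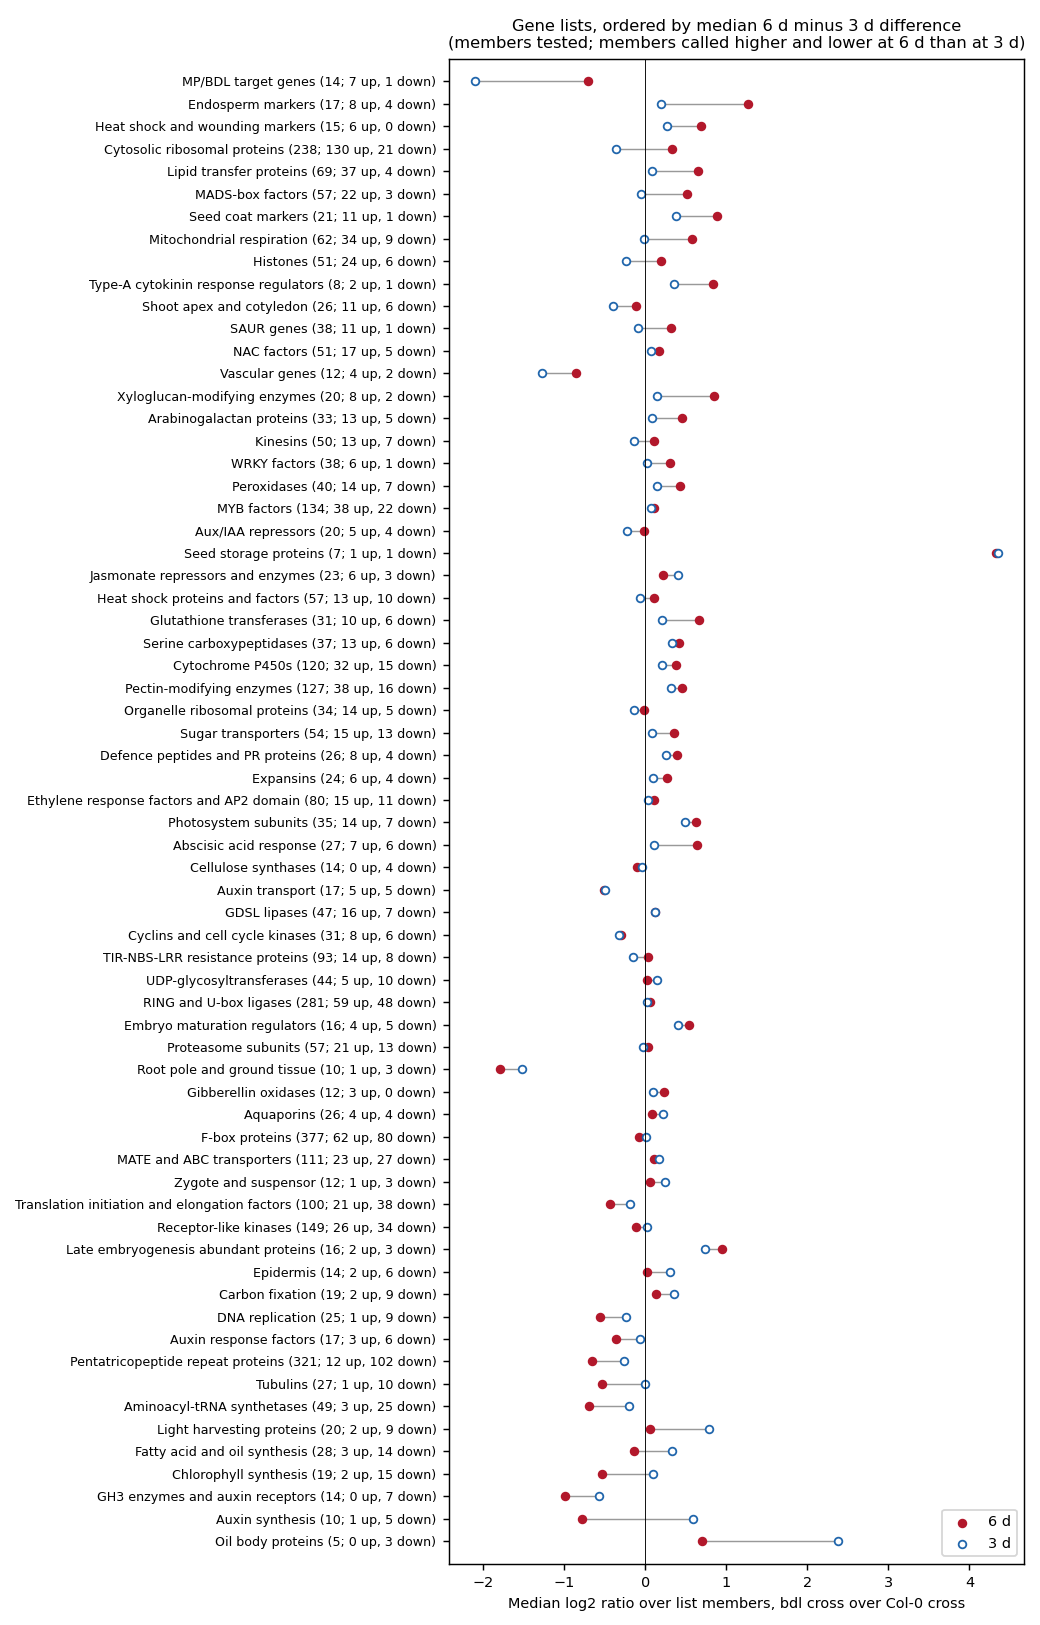
Each row is 1 of 66 gene lists, with the median cross ratio (log2) at 6 d (red) and at 3 d (open blue), ordered by the median of the members' differences; the labels give the members tested and the numbers called higher and lower at 6 d than at 3 d. MP and BDL targets, endosperm markers, heat shock and wounding markers and cytosolic ribosomal proteins are at the top, and oil body proteins and auxin synthesis at the bottom.

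**Figure D5:**
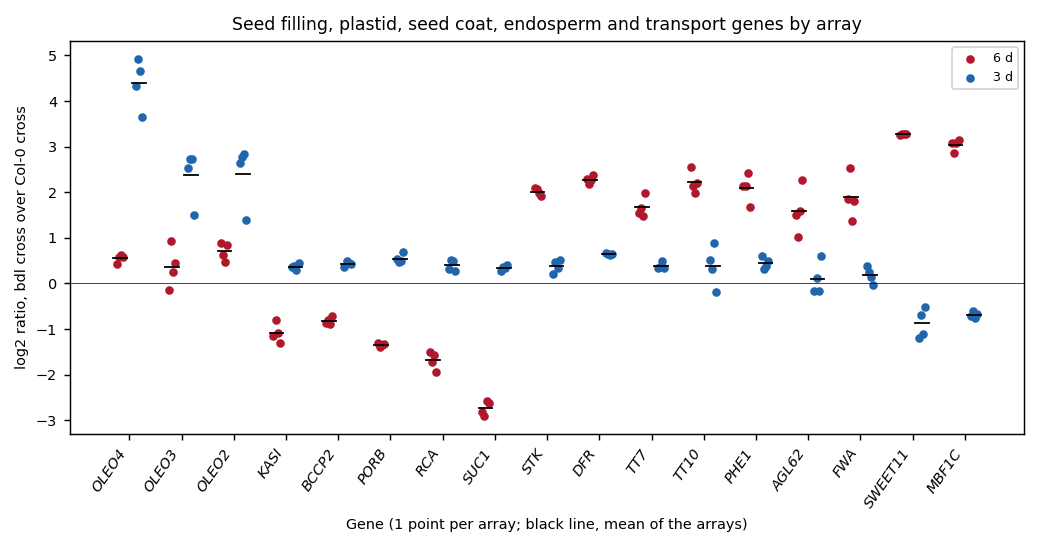
Log2 ratios on each array, 6 d in red on the left and 3 d in blue on the right of each gene, with black lines at the means. The oleosins and the plastid and transport genes to SUC1 lie lower at 6 d, and the seed coat, endosperm and stress genes from STK onward lie higher, with no overlap between the stages in any gene shown.

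The largest single differences were searched among 7450 genes that had all 8 values, no overlap between stages and a signal above the blank spots in at least 1 channel on every array of 3 d. After DRNL, the highest were AT3G52550, AT5G50050, AHP6, AT5G54067, Rap2.6L, AT5G55132, MT1A, AT5G38195 and AT1G51850, with differences of 4.58 to 5.54. MT1A, a metallothionein that binds metal ions, had 4.56, 4.73, 5.06 and 4.96 at 6 d, against 0.25, 0.28, 0.07 and 0.24 at 3 d. AT5G54067 and AT5G55132, of unknown function, rose by 4.79 and 4.66, and the call of AT3G52550, a hypothetical protein, was lost with equal spread. AT1G51850, a receptor-like kinase, had 2.83, 7.80, 5.06 and 4.71 at 6 d, against 0.66, 0.48, 0.33 and 0.61 at 3 d. In MT1A and AT1G51850 alike the crosses were close at 3 d, and at 6 d the bdl cross stood far above.

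At the other end stood AT2G45340, AT1G09750, ARD3, OLEO4, AT4G29270, AT1G33750, CKX5, AT4G24060, TCP2 and YAB3, with differences of -5.06 to -3.20. AT2G45340, a leucine-rich repeat kinase, had -4.57, -4.37, -8.22 and -3.90 at 6 d, against -0.19, -0.32, -0.18 and -0.14 at 3 d. AT1G09750, annotated as related to a chloroplast nucleoid protein, had -2.58, -2.72, -2.71 and -2.92 at 6 d, against 2.21, 1.63, 2.09 and 2.00 at 3 d, and ARD3, an acireductone dioxygenase of methionine salvage, had -1.0, -0.83, -0.93 and -1.06 at 6 d, against 4.87, 4.98, 2.53 and 2.07 at 3 d. Both turned from higher to lower in the bdl cross. AT4G29270, an acid phosphatase, and AT1G33750, a terpene synthase, differed by -3.84 and -3.81. CKX5, which breaks down cytokinin, had -2.32, -2.16, -2.01 and -2.05 at 6 d, against 1.10, 0.53, 3.80 and 0.70 at 3 d, and TCP2, a regulator of leaf growth, had -2.83, -2.49, -3.26 and -2.73 at 6 d, against 0.53, 0.69, 0.40 and 0.69 at 3 d. AT4G24060, a Dof factor, fell by 3.56, but lost its call with equal spread and without replicate 1 of 3 d or replicate 2 of 6 d. Of the 185 genes named 16 had more than 1 probe, and in 15 of these every probe moved in the same direction, PIN7 being the exception. The named genes are a choice, so that share does not hold for the candidates they were chosen from. Several candidates left unnamed had probes that moved in opposite directions, while in others all probes moved alike. Probes agreed less over the whole array. In 1314 loci with at least 2 measured probes, the differences of the 2 brightest had a Pearson r of 0.577. Where the brighter probe differed by at least 1, in 273 loci, the second had the same sign in 235. Of the 185, 39 lacked a value or were not above the blank spots in 1 of the channels of 3 d on at least 1 array. For YUC10, ALE1, OLEO4, CRA1, UGT74F1, UGT85A2 and KNAT1 the Col-0 cross was measured on 1 or 2 arrays of 3 d, and for YAB5, WRKY23, THI2.2 and AT3G52550 the bdl cross on 2.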

How the data were processed

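Embryo RNA of both crosses was compared on 8 arrays of 2 colours, 4 of 6 d and 4 of 3 d. RNA was amplified and coupled to dyes, per the labels' protocols; how the images were read, corrected and normalized is not given in the sources used here. The authors deposited a value table of log2 ratios for all arrays and, at 3 d, intensity values per spot and channel whose blank spots lay near 0. Rows of the table carry no probe names. Of 28399 rows, 24661 had 2 or more 3 d values, and every one of these fitted a single spot of the deposited 3 d intensities (largest difference 4.71e-08, tolerance 1e-06), which gave 22127 loci, of which 21973 were in the RefSeq table. Column medians lay near 0 and were left as deposited, and the scale and direction of the 6 d columns are taken to be those of the 3 d columns.

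The brightest probe of a locus was used where it had values on at least 3 arrays of each stage and a channel above the 95th percentile of blank spots on at least 2 arrays of 3 d. limma 3.58.1 in R 4.3.3 (lmFit and eBayes) fitted both stages with 1 shared dye term, and p-values were adjusted by Benjamini-Hochberg over 18257 genes at 0.05. The number of arrays limits the precision. Whether replicates came from separate plants is not stated beyond the design text, so p-values cover only the spread among these arrays, which may be technical. The intensities were used for names, for the filter and for the marker check. Tables and plots were made with Python 3.11.15, pandas 2.3.3, scipy 1.17.1 and matplotlib 3.10.9, and the fit was tested on simulated data.

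The 66 gene lists, the comparison and the genes named were chosen with earlier results of these data known, and some members' symbols were corrected after the files had been read. Named were IAA12, MP, the 10 largest differences in each direction among genes with 8 values and no overlap, and from each list members among the 4 largest called in each direction. Equal columns' medians or spread, filters, probe averaging, dye terms, replicate blocks, an intensity trend, array weights and leaving out each array were tried as alternatives. Centring by gene length and pairing dyes by the blank spots were added after the data had been seen. Replicate numbers were not taken to pair arrays, since deviations of same-numbered arrays did not correlate. Promoter sequences were not used here, and 1 gene that the rule would name is not reported here.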

Additional observations from a re-analysis of the deposited data

Results flagged for a closer look

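Among 489 groups of 4 array values, 1 value stood apart from the other 3 by Dixon's criterion for 4 samples in 34, and chance gives about 1 in 20. For single genes these were cross ratios on the log2 scale. Set apart were ETT 0.13 on replicate 1 of 6 d (others 0.30 to 0.33), YUC4 0.27 on replicate 1 of 6 d (others 0.49 to 0.53) and YUC4 2.19 on replicate 4 of 3 d (others 3.09 to 3.26). Likewise apart were DOF2.4 3.80 on replicate 4 of 6 d (others 0.67 to 0.96), LHW -1.0 on replicate 1 of 3 d (others -0.13 to -0.05) and HDG2 -0.21 on replicate 1 of 6 d (others -0.07 to -0.06). Also apart were AT1G67250 0.09 on replicate 4 of 3 d (others -0.25 to -0.19), scpl44 1.96 on replicate 3 of 6 d (others 1.87 to 1.88) and AT5G05370 -0.02 on replicate 1 of 3 d (others -0.09 to -0.08). The same held for HEME2 0.66 on replicate 4 of 3 d (others 0.20 to 0.23), OLEO2 1.40 on replicate 4 of 3 d (others 2.63 to 2.84) and HON5 -2.45 on replicate 3 of 6 d (others -1.27 to -1.22). Further values apart were CYCD4;1 0.20 on replicate 3 of 3 d (others 0.11 to 0.12), LTP4 -1.31 on replicate 4 of 3 d (others -0.16 to -0.03) and ABF4 0.19 on replicate 3 of 3 d (others -0.27 to -0.20). Others were WRKY23 1.45 on replicate 1 of 6 d (others 1.62 to 1.64), AT2G45340 -8.22 on replicate 3 of 6 d (others -4.57 to -3.90) and AT4G36220 -1.30 on replicate 1 of 6 d (others -1.56 to -1.52). Apart as well were UGT85A2 1.83 on replicate 3 of 6 d (others 0.41 to 0.63), GSTU19 -0.30 on replicate 2 of 6 d (others 0.11 to 0.16) and SUT4 1.06 on replicate 2 of 3 d (others 0.33 to 0.36). The remaining genes were TT7 0.49 on replicate 3 of 3 d (others 0.34 to 0.35), STZ 7.59 on replicate 2 of 6 d (others 3.14 to 3.88) and MT1A 0.07 on replicate 3 of 3 d (others 0.24 to 0.28).

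For list medians the values apart were DNA replication -0.75 on replicate 1 of 6 d (others -0.52 to -0.49), Tubulins -0.13 on replicate 1 of 3 d (others -0.03 to -0.03) and SAUR genes -0.13 on replicate 1 of 3 d (others -0.07 to -0.06). Other medians apart were Root pole and ground tissue -0.61 on replicate 1 of 3 d (others -1.44 to -1.39), Vascular genes -1.96 on replicate 1 of 3 d (others -1.0 to -0.84) and Abscisic acid response -0.04 on replicate 1 of 6 d (others 0.61 to 0.66). Likewise apart were MATE and ABC transporters 0.29 on replicate 3 of 6 d (others 0.06 to 0.08), MADS-box factors 0.11 on replicate 2 of 3 d (others -0.08 to -0.05) and Seed coat markers 1.21 on replicate 3 of 6 d (others 0.85 to 0.89). The last was Heat shock and wounding markers -0.12 on replicate 1 of 3 d (others 0.20 to 0.23). Replicate 1 of 3 d accounts for 5 of these 10 list medians. The cause of these gaps was not tested.

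The 2 stages differed under the same contrast of the crosses by limma's test of the difference itself in 8459 genes, and in IAA12 by -3.09 on the log2 scale, with all 4 values of 6 d below all 4 of 3 d. A further 3738 rows of the value table could not be named, as they had under 2 values at 3 d. Of these 1477 had at least 3 values at 6 d, and in 382 the 6 d mean was at least 1 in size with the same sign on every array, as many higher as lower in the bdl cross. They enter no comparison here.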

How the results depend on the processing

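Of the 184 called genes named in the text, 166 kept their call in each of the 21 alternative settings that tested them, and 18 lost it or turned in at least 1. Leaving out each array in turn gave 4126 to 4249 genes that rose, 3431 to 3732 that fell and an SD ratio between stages of 1.54 to 1.65; WOX5, SESA4 and AT4G24060 lost their calls in some of these. Asking for a difference of at least 1 on the log2 scale left 2547 risers and 1363 that fell. With every array at the same spread, 3649 rose and 2703 fell, and the difference turned for YUC10 (-0.33), PLT1 (0.11), SCR (0.029), PIN7 (0.007), SESA4 (-2.09) and the medians of 10 lists, of which that of peroxidases (-0.024) had been over 0.25 and over its replicate SD. Centring within 10 groups of gene length gave 4459 and 3719 with 81.4% of calls kept, and turned the medians of 14 lists, of which those of SAUR genes (-0.22) and arabinogalactan proteins (-0.23) had been so large; the cause of these turns was not tested. Of 1386 list medians over all settings, 81 in 29 lists changed sign, and 1231 moved by less than the replicate SD. With 1 array left out, a count of risers or of genes that fell moved by over 1.5 times in 22 of the 66 lists. A replicate block left 4079 and 3425, with 86.1% of calls kept; same-numbered arrays of the stages had deviations correlated at -0.077 to -0.043, so the numbers did not pair them. With the block SAUR68, WOX5 and AT4G24060 had no call (adjusted p of 0.0582, 0.0738 and 0.0596). Apart from the size threshold, no setting moved the counts over all genes by over 1.5 times. Signal over background is known at 3 d alone, so a low 6 d signal cannot be recognised.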
